A study of Mus musculus with 4 samples.

Results

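This section describes the cells of the Mll3/4 deleted Kit+ library that belonged to large heavy-chain clones. A clone was the set of cell barcodes whose assembled immunoglobulin heavy-chain contig had the same CDR3 nucleotide sequence, and a clone was large when at least 50 barcodes carried that sequence. A kept cell had 1000 or more UMIs (unique molecular identifiers, 1 per captured transcript), 500 or more genes and no more than 10% of its UMIs from mitochondria. The rule gave 14 clones with 2060 kept cells, of 15091 deposited barcodes in that library, of which 14915 were kept, and of 56502 barcodes in the series. The clone sizes chose the members, so sizes and shared CDR3 sequences are given as a description. The smallest clone inside the threshold was on 52 barcodes and the largest CDR3 outside it on 45.

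The series holds 4 single-cell libraries of sorted CD45.2+ mouse bone marrow, all taken 10 weeks post-transplantation: control Kit+, Mll3/4 deleted Kit+, Mll3/4SI Kit+ and control B220lo cells. Each group was 1 library, and the labels do not state how many mice entered it, which Cre or promoter made the deletion or what SI stands for. The groups used below are the Mll3/4 deleted Kit+ cells and, for comparison, the control B220lo cells, which differ from the members in both gate and genotype. With 1 library per group no test of a condition can be made, and every interval below is a 95% interval for counting error alone.

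Developing B cells assemble the heavy-chain gene on 1 chromosome by joining a D to a J segment first and a V segment to that DJ afterwards, with the Rag1 and Rag2 recombinase. Terminal transferase, encoded by Dntt, adds untemplated bases at the joints, so the joint of a V to a DJ, or of a D to a J, is used as a natural barcode of descent. A heavy chain made in this way pairs with the surrogate light chain (Vpreb1, Vpreb2 and Igll1) to form the pre-B cell receptor, and light-chain genes are rearranged after that step in the small pre-B cell.

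The CDR3 of each clone is shown because the clones were defined by it and because several of them shared their 3′ part. The sequences come from the deposited contigs. Capitals mark the part that matched the germline J segment together with the 6 bases before it, which covers the D-to-J joint and is called the D-J junction here.
clone 1: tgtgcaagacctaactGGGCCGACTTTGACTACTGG
clone 2: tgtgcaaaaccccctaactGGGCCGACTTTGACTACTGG
clone 3: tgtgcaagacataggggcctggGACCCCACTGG
clone 4: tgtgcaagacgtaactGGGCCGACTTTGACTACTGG
clone 5: tgtgcaagacagctcaggctACGTGAG
clone 6: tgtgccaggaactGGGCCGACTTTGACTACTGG
clone 7: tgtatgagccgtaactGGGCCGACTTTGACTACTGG
clone 8: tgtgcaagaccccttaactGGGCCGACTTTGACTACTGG
clone 9: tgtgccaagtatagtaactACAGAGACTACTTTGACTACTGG
clone 10: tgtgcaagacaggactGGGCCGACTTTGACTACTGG
clone 11: tgtgccggaacTGCCCCCTTTGACTACTGG
clone 12: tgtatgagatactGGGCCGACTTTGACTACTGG
clone 13: tgtgcaagagaactggGACCCCACTGG
clone 14: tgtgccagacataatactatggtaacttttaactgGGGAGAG

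For reference, the germline D segment Ighd4-1 and the J segments of the clones are given as in the GENCODE vM21 transcripts of GRCm38 (mm10). Ighd4-1 lies at chr12:113430528-113430538, Ighj2 at chr12:113429468-113429567 and Ighj3 at chr12:113429085-113429132, all on the minus strand.
Ighd4-1: ctaactgggac
Ighj2: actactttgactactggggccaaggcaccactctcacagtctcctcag
Ighj3: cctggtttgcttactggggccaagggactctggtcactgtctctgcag

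The 14 clones fell from 446 cells to 52 cells. Clone 1 had 446 cells, which was 21.7% of the members (19.9 to 23.5%), clone 2 had 370 and clone 3 had 232, so the 3 largest made up 50.9%. The other clones had 169, 125, 106, 101, 99, 90, 80, 72, 60, 58 and 52 cells. The members were 60.9% of the 3384 kept cells with a heavy-chain contig and 13.8% (13.3 to 14.4%) of all kept cells of the library. Of 631 distinct CDR3 sequences in the library, a further 11 were on 20 to 49 barcodes and 479 were on a single barcode.

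**Figure D1:**
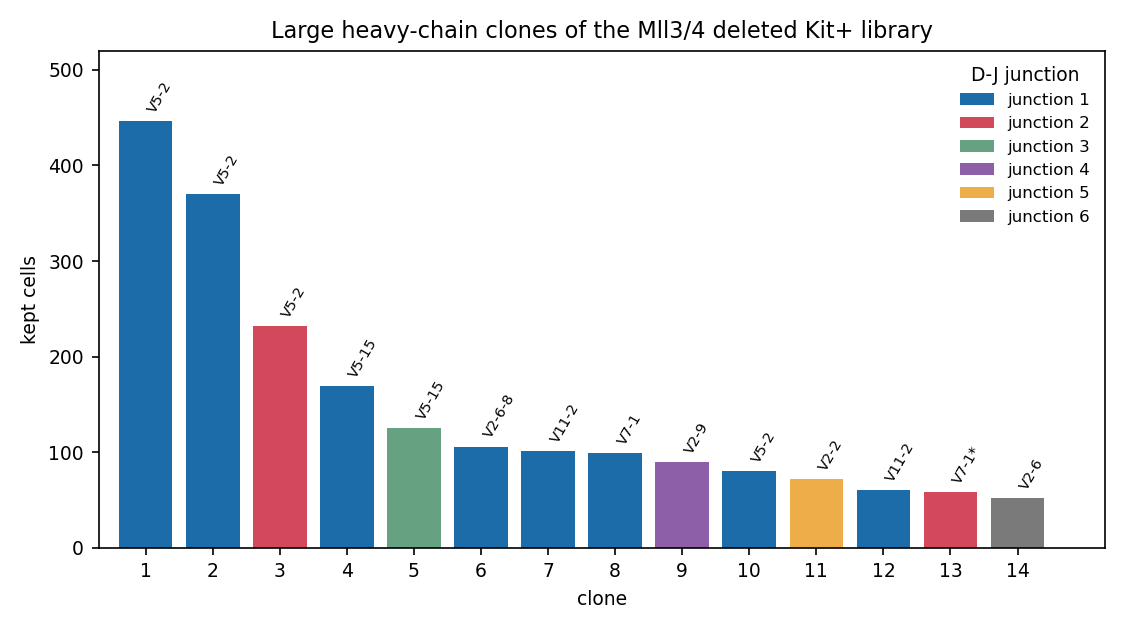
Number of kept cells (vertical axis) in each large heavy-chain clone (horizontal axis), with the V gene above each bar and the D-J junction as colour; V7-1* marks the clone read with IGHV7-1 in 41 cells and IGHV1-47 in 17. The 8 clones in blue, from 446 to 60 cells, carried the same junction.

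All 14 clones were of the IgM class, the first antibody class a B cell makes. Of the 2066 large-clone barcodes, 2064 had a contig with the Ighm constant gene and 2 had no constant gene called. The contigs held a median of 21 UMIs, from 2 to 119, so no clone rested on contigs of 1 UMI. Within each of 13 clones every contig had 1 and the same sequence from V to J. Clone 13 held 2 such sequences, with the same CDR3 behind IGHV7-1 in 41 cells and behind IGHV1-47 in 17, and is a clone by its CDR3 only. The V part of 1 contig from each of the 14 clones was compared with its germline V gene and had 0 mismatches. In clone 13 this covered only 1 of the 2 sequences.

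The cells were checked against the B-lineage markers Cd79a and Ighm. Cd79a, a signalling subunit of the B cell receptor and its precursor, had at least 1 UMI in 99.5% of the members, and in 94.9% after each cell was thinned to 1000 UMIs. In the 502 cells of the same library without a contig and below 3 UMIs over 6 B-lineage genes, the share with Cd79a was 21.1%, or 1.99% thinned. Cd79a is 1 of those 6 genes, so a low share there was set by how these cells were chosen and checks nothing. Ighm, the IgM constant gene, had a UMI in 92.4% of the members, or 41.2% thinned, against 33.5% or 4.78% in those other cells. That contrast is tied to the choice of cells as well, since members were chosen for a heavy-chain contig, nearly always with Ighm, and the other cells for having none. The median cell depth was 6414 UMIs in the members and 15184 in those other cells. The share with Ighm ran from 86.8% to 96.0% over the 14 clones, with Cd79a in 98.0% or more of each.

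Levels are given below as CPM, the UMIs of a gene summed over the cells of a clone or group and divided by all UMIs of those cells, on the usual scale for sequencing counts. The deletion itself could not be checked at the level of the gene. Kmt2c, which encodes MLL3, was at 52.1 CPM in members and 126 in control B220lo cells with a heavy chain only, and Kmt2d, which encodes MLL4, at 20.9 and 40.7. Over the clones Kmt2c ran from 34.7 to 61.4 CPM and Kmt2d from 15.7 to 36.9. Which exons were deleted is not given in the sources used here, and UMIs of a 5′ kit outside the deleted part would check nothing.

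The clones drew on only 9 V genes, and the one nearest to the D segments was used most. IGHV5-2 (chr12:113578504-113578990, minus strand), 1st of 113 annotated V genes from the D side and 148 kb from Ighd4-1, was the V gene of clones 1, 2, 3 and 10 and of 1128 cells. IGHV5-15 (chr12:113826646-113827129), 16th in that order, was used by clones 4 and 5 with 294 cells. IGHV11-2 (chr12:114048241-114048812), 27th, was used by clones 7 and 12 with 161 cells. IGHV7-1 (chr12:113896408-113896946), 20th, was used by clone 8 and by the larger side of clone 13, with 140 cells. Of the 5 remaining V genes 4 served 1 clone each, IGHV2-6-8 (14th) in clone 6, IGHV2-9 (19th) in clone 9, IGHV2-2 (2nd) in clone 11 and IGHV2-6 (10th) in clone 14. IGHV1-47, 75th in the order and 1561 kb from Ighd4-1, was present only in the 17 cells of clone 13.

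Counted by cell, the members used V genes closer to D than the other heavy chains did. IGHV5-2 made up 54.8% of the contigs of members, 23.9% of 1325 contigs of small or single clones of the same library, and 0.616% of 9745 heavy-chain contigs of the control B220lo library. The median distance of the V gene from Ighd4-1 was 148 kb in members, 286 kb in small clones and 1278 kb in control B220lo cells. Counted by distinct CDR3 and V gene, the 15 sequences of the large clones had a median of 396 kb and the 618 of small clones one of 286 kb, so the order of large and small clones turned when each sequence was counted once. J segments were uneven too, with IGHJ2 in 93.9% of the members' contigs, 59.5% of those of small clones and 38.7% of those of control B220lo cells. The IGHV5-2 and J shares count every cell, not each joining event once. Of the members 1431 carried 1 and the same D-J junction with IGHJ2. Of the small-clone cells 511 carried a junction of a large clone, so the 2 groups are not independent. Clone 5 was the only one with IGHJ3.

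The 14 clones carried 6 D-J junctions between them. The junction ending GGGCCGACTTTGACTACTGG was carried by 8 clones, numbers 1, 2, 4, 6, 7, 8, 10 and 12, with 1431 cells and 5 V genes. Clones 3 and 13 shared GACCCCACTGG, with 290 cells and 3 V genes. Clones 5, 9, 11 and 14 each had a junction of their own, ACGTGAG, ACAGAGACTACTTTGACTACTGG, TGCCCCCTTTGACTACTGG and GGGAGAG. These are called junctions 1 to 6 below, in the order of clones 1, 3, 5, 9, 11 and 14. The 8 clones of junction 1 also matched Ighd4-1 over the start of the junction and the bases ahead of it. The match ran from 9 bases in clones 1 and 2 (ctaactggg) to 6 in clones 10 and 12. Such matches were not particular to junction 1, with 9 bases in clone 13, 8 in clone 14 and 7 in clone 3. Clones 5, 9 and 11 matched Ighd4-1 over 3, 5 and 5 bases. Outside the V part, clones 12 and 13 matched it over 5 and 8 bases. Clones 5, 9 and 14 matched another D segment longer, over 11, 12 and 13 bases. In clones 5 and 14 the CDR3 as deposited ended with gag in place of the tgg codon that ended the other 12, and only its last base matched the J segment.

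The rule did not use the small clones, and the same junctions were found there, both with the V genes of the large clones and with others. Of the examples below, junction 1 with IGHV7-1 and junction 2 with IGHV5-2 repeat a V gene that a large clone (8 and 3) joined to that junction. Of 1324 cells in small or single clones, 511, or 38.6% (36.0 to 41.3%), carried a junction of a large clone. Junction 1 was in 222 such cells with 47 further CDR3 sequences, which took its V genes to 22 in all. Junction 2 was in 83, junction 5 in 100 with 20 V genes, and junction 6 in 100 with 14 V genes, whereas junctions 3 and 4 were in 4 and 2. The examples were chosen for having the same capitals as the large clone, so that identity was set by the choice. Letters just ahead of the capitals could be shared as well, and in junction 6 most of the lower-case part matched clone 14.
junction 1, IGHV2-3, 39 cells: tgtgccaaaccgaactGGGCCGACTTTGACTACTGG
junction 1, IGHV7-1, 37 cells: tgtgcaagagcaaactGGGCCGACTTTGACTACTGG
junction 2, IGHV5-2, 20 cells: tgtgcaagactggGACCCCACTGG
junction 5, IGHV5-15, 35 cells: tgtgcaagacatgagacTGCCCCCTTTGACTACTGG
junction 6, IGHV2-3, 21 cells: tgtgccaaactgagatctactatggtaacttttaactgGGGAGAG
junction 6, IGHV1-11, 21 cells: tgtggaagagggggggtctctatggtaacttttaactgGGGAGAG

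The control B220lo library had 1 of 9042 heavy-chain cells, or 0.0111% (0.00028 to 0.0616%), with any of the 6 junctions, and the control Kit+ and Mll3/4SI Kit+ libraries had none among their 34 and 25 heavy-chain contigs. Over all heavy chains of the deleted library whose junction could be read, junction 1 took 48.9% of 3379 barcodes, and 358 different junctions were present. In control B220lo cells the most frequent junction took 0.709% of 9023 barcodes, and 5763 were present. Each junction held 6 bases before the J match, and the lengths differed by the J bases alone. There was 1 J base in junctions 3 and 6 and there were 17 in junction 4. The J bases are germline sequence, so a longer junction is not for that reason a more specific one. With 9 bases read before the J segment, 33.0% of the small-clone cells matched a large clone. No CDR3 of a large clone was present in another library. Of their 2060 cell barcodes, members shared 37 with the control Kit+ library, 40 with Mll3/4SI Kit+ and 39 with control B220lo. Of all 15091 barcodes of the deleted library, 254, 253 and 345 were shared with these libraries, so such sharing was not particular to the members.

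**Figure D2:**
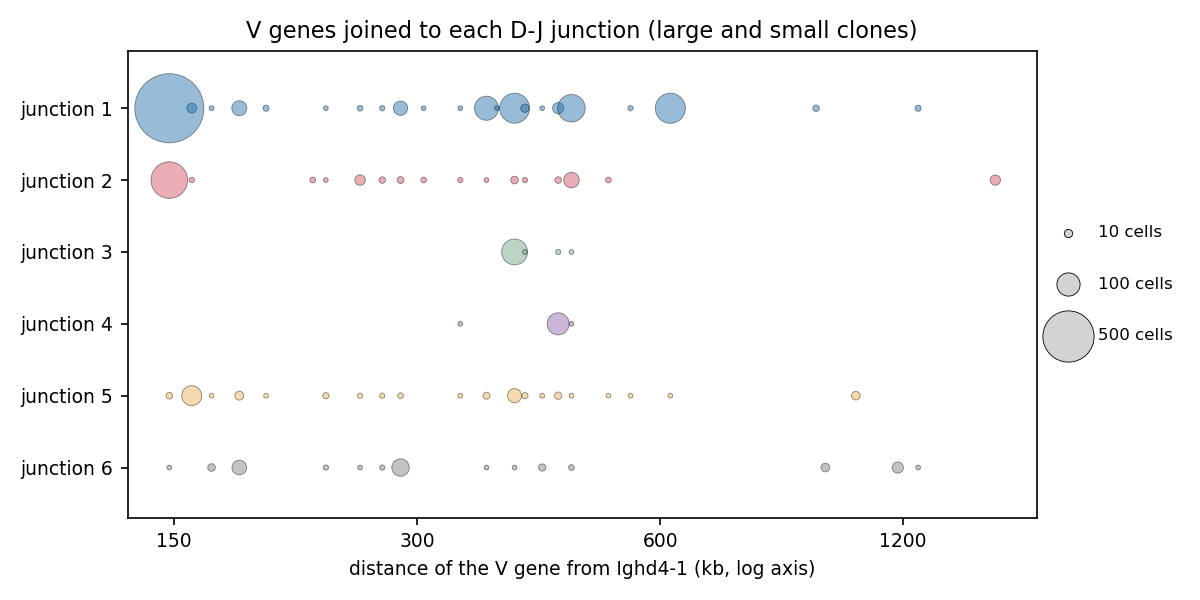
Each circle is a V gene joined to 1 of the 6 D-J junctions in large and small clones of the deleted library; its area grows with the number of kept cells and its place on the horizontal log axis is the distance of the V gene from Ighd4-1 in kb. Junctions 1, 2, 5 and 6 stood behind 22, 16, 20 and 14 V genes.

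Almost no member had a light chain. A light-chain contig was present in 4 of 2060 members, or 0.194% (0.0529 to 0.496%), in 17 of 1324 small-clone cells, or 1.28% (0.750 to 2.05%), and in 80.1% of control B220lo heavy-chain cells. The 4 were IGKV10-94 with 2 UMIs in clone 1, IGKV2-109 with 2 UMIs in clone 3, and IGKV3-12 and IGLV2 with 1 UMI each in clone 12. All 4 therefore rested on 1 or 2 UMIs, beside a median of 21 for the heavy chains. No member had 2 heavy chains.

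The expression matrix, which was counted apart from the contigs, showed the V gene of each clone as well. Transcripts of the V gene named by a cell's own contig were present in 2047 of 2060 members, or 99.4% (98.9 to 99.7%), and in 75.1% after thinning to 1000 UMIs. By clone the share ran from 98.4% in clone 2 to 100% in clones 3, 5 and 9 to 14. Members of other clones had the same V gene in 0.680% of cells for IGHV5-15 to 9.23% for IGHV5-2, and in 0.170% and 2.04% after thinning. Own V transcripts were 96.0% of all UMIs of these 9 V genes in the members. V genes of one family share sequence, so reads could be split between IGHV5-2 and IGHV5-15 or within the IGHV2 family, and their counts are uncertain to that extent. Clones 1, 2, 3 and 10 had 5164, 3790, 2602 and 826 UMIs of IGHV5-2, and 3, 3, 3 and 0 of IGHV5-15. Clones 4 and 5 had 2246 and 1623 UMIs of IGHV5-15, and 9 and 31 of IGHV5-2, so little was counted across this pair. Over the cells whose contig named it, the level of the own V gene ran from 738 CPM for IGHV1-47 in 17 cells of clone 13 to 1837 CPM for IGHV11-2 in clone 12. Over all cells of clone 13 IGHV1-47 was at 232 CPM.

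**Figure D3:**
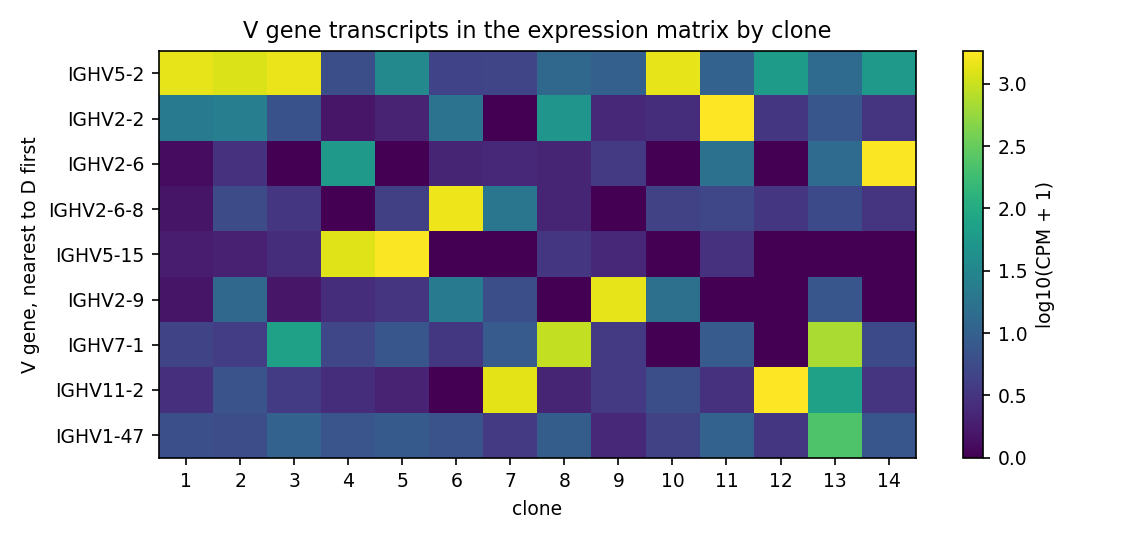
Transcripts of the 9 V genes (rows, nearest to D first) in each of the 14 clones (columns) in the expression matrix, coloured by log10(CPM + 1). Each clone's brightest row is the V gene of its contigs, and clone 13 is bright in the rows of both IGHV7-1 and IGHV1-47.

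Log2 differences use CPM + 1, and a gene is said to lie apart when its CPM + 1 differed at least 2-fold and it had at least 100 UMIs in the group where it was higher. Each clone was summed over its cells, from 445943 UMIs in clone 12 to 3759342 in clone 1, and median depth per cell ran from 5564.5 UMIs in clone 12 to 8504 in clone 4. Granulocyte transcripts were unequal between clones and are given first because they touch several results. Over 11 granulocyte markers, clones 5 and 11 had 152 and 144 CPM, whereas clone 13 had 5534 CPM. Of the members, 37 cells held at least 10 UMIs of these markers, and clones 5 and 11 had no such cell. Without those 37 cells the summed level was 117 to 173 CPM in all 14 clones. Those cells were picked by the same 11 markers, so this low and level sum was set by the choice and checks nothing. The same holds below for each of these markers wherever such cells are left out.

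Several genes of early B-cell development varied less than 2-fold over the 14 clones. The surrogate light chain list, which also holds Vpreb3, a related chain at 1718 CPM in members, summed to 5964 CPM in clone 7, 6845 at the median clone and 8401 in clone 11. Vpreb1, a chain of the surrogate light chain, ran from 2405 to 3485 CPM with a median of 2617, and Igll1, the other, from 2107 to 2865 with a median of 2432. Dntt ran from 1025 CPM in clone 10 to 1726 in clone 11, with a median of 1438. Ebf1, the transcription factor that commits cells to the B lineage, ran from 1625 to 2497 CPM, and Pax5, which holds that commitment, from 267 to 366. Kit, the receptor used for the sort, ran from 366 to 527 CPM.

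Clone 4 was below the other 13 in Foxo1, Rag1, Rag2 and Cd79b, 4 genes picked after the values were seen. Foxo1, a transcription factor that drives Rag expression, was at 556 CPM (522 to 592) in clone 4 and between 921 and 1110 CPM in the others. Rag1 was at 120 CPM (105 to 137) there, against 198 to 296 elsewhere, and Rag2 at 96.4 CPM (82.4 to 112), against 162 to 211. Cd79b, the partner of Cd79a, was at 189 CPM (170 to 211), against 308 to 511. After thinning, the share of cells with Rag1 was 10.1% in clone 4 and 12.3% in clone 6, and higher in the other 12, up to 38.3% in clone 12, so this share did not set clone 4 apart from clone 6. The thinned share for Rag2 was 11.2% in clone 4 and 12.5% in clone 11. For Foxo1 it was 40.2% in clone 4 against 56.6 to 73.1% in the others, and for Cd79b 16.6% against 27.7 to 50.5%, so clone 4 was lowest for both at equal depth too. Further genes of the same lists went both ways. Blnk, an adaptor of receptor signalling, was lowest in clone 4 at 723 CPM against 876 to 1067, although its thinned share of 58.6% was above the 55.0% of clone 10, and the pre-B receptor signalling list was lowest there, at 5721 CPM. The 10 recombination genes summed to 1694 CPM in clone 10 and 1700 in clone 4, Lig4, the ligase that closes the joints, was highest in clone 4 at 36.8 CPM, and Cd79a was lowest in clone 13, at 3274 CPM against 3631 in clone 4. Il18r1, a chain of the interleukin-18 receptor, was highest in clone 4 at 78.2 CPM (65.7 to 92.4), followed by 41.7 CPM in clone 10 and a median of 17.3. Clone 4 also had the highest median depth per cell.

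Genes of cell division and of the interferon response were unequal between clones. The sum of 20 genes of the G2 and M phases was 2525 CPM in clone 12 (2380 to 2677), 3612 at the median clone and 4830 in clone 9 (4677 to 4987). The 20 S phase genes ran from 2040 CPM in clone 14 to 2535 in clone 9, with 2203 at the median. Mki67, a marker of cycling cells, was at 343 CPM in clone 12, 504 at the median and 567 in clone 9. The 14 interferon response genes summed to 691 CPM in clone 5 (639 to 746), 1080 at the median and 1527 in clone 12 (1415 to 1646). Isg15, an interferon-induced modifier protein, was at 28.9 CPM in clone 5, with a median of 81.3 and a highest value of 102 in clone 7. Clone 9 was thus highest and clone 12 lowest for the G2/M sum. For the S phase sum clone 6, at 2533 CPM, was level with clone 9, and clone 10, at 2043 CPM, with clone 14. Clone 12 was highest and clone 5 lowest for the interferon sum.

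Some single genes differed widely between clones. Of 2616 genes with at least 100 UMIs in the highest of the 7 clones with at least 100 cells, 53, or 2.03%, had a highest clone at least 4-fold above the lowest. Auts2, a nuclear regulator known from neural development (chr5:131437333-132543344, minus strand), had the widest range. It was at 722 CPM in clone 5 (669 to 779), against 2.17 to 56.4 CPM in the other 13 clones, with a median of 31.2 over all 14. In clone 5, 88.0% of cells had an Auts2 UMI, or 43.2% thinned, against 7.65% or 1.5% in the other members and 21.9% or 4.98% in the cells below the B-lineage limit. Small-clone cells without any of the 6 junctions had Auts2 at 199.6 CPM, and those with junctions 1, 2, 5 and 6 at 13.8, 21.3, 48.5 and 53.7 CPM.

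Clone 5 shared several of its high genes with clones of other junctions. Pcdh7, a protocadherin of the cell surface (chr5:57717967-58133230), was at 281 CPM (248 to 317) in clone 5 and 238 CPM (195 to 287) in clone 12, with 32.1 CPM in clone 9 and a median of 9.42. Mmp16, a membrane-bound matrix protease (chr4:17852893-18119145), was at 176 CPM (150 to 205) in clone 5, 75.8 CPM (57.7 to 97.7) in clone 9 and 12.1 at the median. Pcdh15, another protocadherin (chr10:73099342-74649737), was highest in clone 9 at 229 CPM (196 to 265), followed by clone 5 at 140 CPM (117 to 167), with a median of 31.5. Clones 5 and 9 were thus high together for Mmp16 and Pcdh15, and clones 5 and 12 for Pcdh7. Kdm5d, a Y-linked histone demethylase, was at 31.1 CPM in clone 5 and 23.1 in clone 9, with a median of 3.81. Cntn5, a contactin, went the other way, at 10.7 CPM in clone 5 and 19.3 in clone 9 against 137 at the median and 280 in clone 12. V genes, J segments and junctions of clones 5 and 9 all differed.

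Another set of genes was high in some of the clones that carried junction 1. Ncam2, a neural-type adhesion molecule (chr16:81200697-81626828), was at 627 CPM in clone 8, 612 in clone 12, 540 in clone 6, 409 in clone 7 and 326 in clone 1, all with junction 1. The other clones of junction 1 were lower, with Ncam2 at 111 CPM in clone 2, 38.5 in clone 4 and 112 in clone 10, within the range of the clones of other junctions, which ran from 20.4 CPM in clone 5 to 191 in clone 13. In small-clone cells Ncam2 was at 179.9 CPM with junction 1, 287 with junction 2 and 220.5 with junction 5. It was at 173 CPM with junction 6 and 124 with none of the large-clone junctions. Grb10, an imprinted adaptor of insulin and growth-factor receptors (chr11:11930508-12038683, minus strand), was at 198 CPM (170 to 231) in clone 8, 132 (101 to 171) in clone 12 and 83.1 (64.2 to 106) in clone 7. In the other 11 clones Grb10 was at 13.6 CPM or less, and it had 0 UMIs in clones 5, 10, 13 and 14. After thinning, 20.2% of clone 8 cells had a Grb10 UMI, against 0.831% of small-clone cells. S100a16, a calcium-binding protein, was at 223, 170 and 139 CPM in clones 8, 7 and 6, and at 7.37 in clone 4. In small-clone cells S100a16 was at 76.5, 55.8, 30.5 and 31.4 CPM with junctions 1, 2, 5 and 6, and at 32.7 with none. Colec12, a scavenger receptor (chr18:9707595-9882644), was at 196 CPM in clone 8, 160 in clone 7 and 2.83 in clone 4. In small-clone cells Colec12 was at 91.3 CPM with junction 1 and 108 with junction 2. It was at 38.8 and 64.9 CPM with junctions 5 and 6, and at 22.1 with none. Clones of junction 1 thus lay at both high and low levels of Ncam2, S100a16 and Colec12, and the clones high in Grb10 all carried it. Whether these levels follow the junction was not tested.

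Clone 1, the largest, was marked by Cdh8, a cadherin (chr8:99024471-99416471, minus strand). Cdh8 was at 79.3 CPM (70.5 to 88.8) in clone 1, 27.9 in clone 5 and 22.9 in clone 3, and at 8.67 CPM or less in the other 11 clones. It was 10.7-fold (8.46 to 13.5) higher in clone 1 than in the other members together. Only 18.2% of clone 1 cells had a Cdh8 UMI, or 7.62% thinned, against 2.29% or 0.248% of the other members. Of 7473 genes, 30, or 0.401%, lay apart between clone 1 and the other members, 11 upward (0.147%) and 19 downward (0.254%), and 14 of 7292 did without the cells holding 10 granulocyte UMIs. Among the 5 genes furthest above, Camp, Ngp, Lcn2 and Chil3, all granule or secreted proteins of neutrophils, were 4.49- to 4.61-fold higher. Of the 11 granulocyte markers 10 reached 100 UMIs, of which 6 lay apart upward and 4 downward (Mpo, Elane, Prtn3 and Ctsg), and the markers summed to 2278 CPM in clone 1 and 2173 in the other members. Without the granulocyte-bearing cells the log2 differences of Camp, Ngp, Lcn2 and Chil3 were −0.93, −0.35, 0.45 and 0.34. Of these only Chil3 was not on the marker list that picked those cells. Among the 5 furthest below were Grb10, at 2.66 against 26.5 CPM, Car1, a carbonic anhydrase of red cell precursors, at 1.06 against 8.42, and Ly6k, at 3.99 against 16.9. The Grb10 level of the other members rested largely on clones 7, 8 and 12, the clones high in that gene.

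Clone 2 had no gene that lay apart upward and 27 of 7329, or 0.368%, that lay apart downward, of which Camp, Ngp, S100a9, Ltf and Lcn2 were furthest. All 5 are neutrophil genes on the marker list that picked the granulocyte-bearing cells. Without those cells their log2 differences were between −0.21 and 0.45, a change set by that choice. Without those cells 19 of 7119 genes still lay apart in clone 2, all downward. Clone 3 had 68 of 6224 genes, or 1.09%, apart, 7 upward (0.112%) and 61 downward (0.98%), and 49 of 6031 without the granulocyte-bearing cells. Rnf152, an E3 ubiquitin ligase of the lysosome, was at 92.8 CPM (79.3 to 108) there against 28.1 in the other members, 3.31-fold higher (2.75 to 3.96). Adgrl3, an adhesion receptor of the latrophilin family, was at 112 against 35.9 CPM, 3.13-fold higher (2.65 to 3.69), although clone 7 was at 94.7 CPM. Ly6a, the stem cell antigen Sca-1, was at 304 against 142 CPM. S100a8 and S100a9, the subunits of calprotectin, were 2.28- and 2.25-fold higher, and Mpo, another granulocyte marker, lay apart downward. Clone 3 had 3 granulocyte-bearing cells, and without them its granulocyte sum was 164 CPM in place of 2347, with log2 differences of 1.29 for S100a8 and 1.15 for S100a9 at that low level. Grb10, Cd34, Irf8 and Sec22c were among the genes furthest below in clone 3, each at 1 or 2 UMIs there. For Grb10 the level of the other members again rested largely on the few clones high in it. Cd34 and Irf8 lost their 2-fold difference without the granulocyte-bearing cells. A smaller clone reaches 100 UMIs for fewer genes than the rest does, which favours genes lower in the clone.

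Of the 15 genes with the widest range between clones, 9 were granulocyte or monocyte genes carried by very few cells. For Camp, S100a9, Ngp, S100a8, Lcn2, Ltf, Mpo, Chil3 and F13a1, a transglutaminase of monocytes, at least 98.8% of the UMIs in the highest of the 7 clones came from 5 cells. Without the cells holding 10 granulocyte UMIs, 39 of 2493 genes still had a 4-fold range. The log2 range of Camp, a marker that picked those cells, went from 7.07 to 1.51, and that of Auts2 from 7.67 to 7.47. Myeloid genes not used for that choice went both ways. Chil3 went from 5.68 to 0.75 and F13a1 from 7.02 to 2.62, still past 4-fold. Lyz2, a monocyte marker, had a range of 5.67 without those cells, with its highest value in clone 1. Kcnma1, a calcium-activated potassium channel, kept a range of 5.27 with its highest value in clone 7, at 136 CPM (111 to 164). There 5 cells held 52.8% of the Kcnma1 UMIs, 53.8% of those of Gal and 47.2% of those of Colec12, so these levels too rested largely on few cells. Gal, the neuropeptide galanin, was at 406 CPM in clone 14, 307 in clone 7 and 281 in clone 3, with 3.85 CPM in clone 9.

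**Figure D4:**
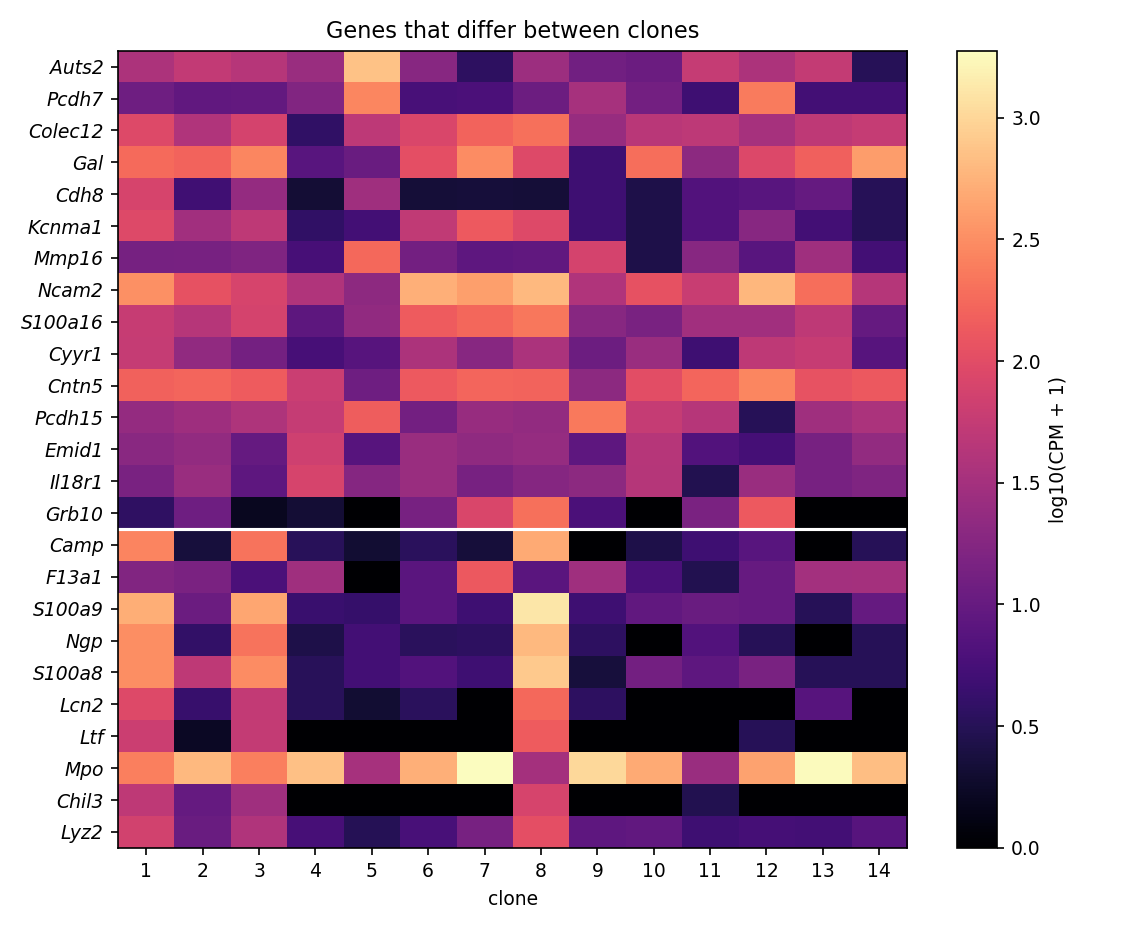
Level of the genes with the widest range between clones (rows) in each of the 14 clones (columns) as log10(CPM + 1); genes below the white line are granulocyte and monocyte genes with most of their UMIs in 5 cells, over all members or in the highest of the 7 largest clones. Auts2 is bright in clone 5 alone (722 CPM), Pcdh7 in clones 5 and 12, and Grb10 in clones 7, 8 and 12.

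The sum over all members lay close to the small-clone cells of the same library. Of 9239 genes, 24, or 0.26%, lay apart, 14 upward (0.152%) and 10 downward (0.108%). Kcnma1 was at 45.8 CPM in members and 14.01 in small-clone cells, 3.27-fold higher (2.77 to 3.87), and Adgrb3, an adhesion receptor, at 78.3 against 27.4 CPM, 2.86-fold higher (2.54 to 3.23). By clone, Kcnma1 ran from 1.67 to 136 CPM and Adgrb3 from 5.14 to 216 CPM, so both depended on which clones made up the sum. Within small-clone cells Kcnma1 was at 40.2, 42.6 and 29.1 CPM with junctions 1, 2 and 5, at 1.01 with junction 6 and at 6.50 with none of the large-clone junctions. Ifit3b, an interferon-induced gene, was at 6.33 against 1.92 CPM. Chil3 and Ngp completed the 5 furthest upward and were level without the granulocyte-bearing cells, with log2 differences of 0.06 and 0.04. Without clone 1 the upward share of the genes apart was 29.4%, in place of 58.3%.

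Downward, Cd74, Nrgn, Car1 and H2-Aa were among the furthest. Of 10 MHC class II pathway genes 6 reached 100 UMIs, of which Cd74 and H2-Aa lay apart downward and 4 did not, with a median log2 difference of 0.02 and sums of 427 CPM in members and 458 in small-clone cells. Cd74, the invariant chain of MHC class II, was at 5.27 CPM in members and 54.1 in small-clone cells, and H2-Aa, a class II chain, at 2.28 against 12.3 CPM. Both are induced later in B-cell development, and in small clones they came from few cells, with 65.0% of the Cd74 UMIs in 5 of 25 positive cells. Nrgn was at 0.820 against 12.7 CPM and Car1 at 6.80 against 37.9, and 95.3% of the Car1 UMIs of small clones were in 5 cells. Epha5, an ephrin receptor, was spread over 303 small-clone cells and was at 16.6 against 59.0 CPM, 3.56-fold lower in members (3.10 to 4.10). Of the genes that reached 100 UMIs, 0 of 3 surrogate light chain, 0 of 9 recombination, 0 of 12 pre-B receptor signalling and 0 of 20 G2/M genes lay apart. Over all genes tested the share was 0.26%, so these counts of 0 lie near that share. The median log2 differences of the 4 lists were 0.01, 0.21, 0.02 and −0.24, beside 0.01 over all genes tested. The G2/M genes summed to 3820 CPM in members and 4487 in small-clone cells.

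Against the 11016 B-lineage cells of the library without any contig, 80 of 10445 genes, or 0.766%, lay apart, 8 upward (0.0766%) and 72 downward (0.689%). There were 35 without the granulocyte-bearing cells and 146 without cells scored above 0.25 for doublets by Scrublet. Ngp, Camp, Ltf, Adgrb3 and Lcn2 were furthest upward, with Adgrb3 at 78.3 against 31.2 CPM. Adgrb3 alone of the 5 stayed above 2-fold without the granulocyte-bearing cells, with a log2 difference of 1.19. Of the 11 granulocyte markers 5 lay apart upward and 4 downward (Mpo, Elane, Prtn3 and Ctsg), and their sum was lower in members, at 2196 against 3863 CPM. Among the 5 genes furthest downward were the haemoglobin genes Hbb-bs, Hbb-bt, Hba-a2 and Hba-a1. The other, 3rd in order, went from a log2 difference of −2.74 to 0.08 without the granulocyte-bearing cells. Hbb-bs was at 1.70 CPM in members and 139.9 in cells without contig, and Hba-a2 had 0 UMIs in members, at least 19.8-fold lower by a floor of 3 counts over the group. Cells holding at least 10 granulocyte UMIs were 1.80% of the members and 4.02% of the cells without contig. Ighm was at 485 CPM in members and 308 in cells without contig, a contrast tied to the choice of both groups by contig.

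Against the 1799 control B220lo cells with a heavy chain and no light chain, 2189 of 9591 genes, or 22.8%, lay apart, 1302 upward (13.6%) and 887 downward (9.25%). Gate and genotype differ between the 2 groups, and so does sex: Xist, transcribed from the inactive X, was at 0.0586 CPM in members and 549 in B220lo cells, and Eif2s3y, on the Y, at 67.1 and 0 CPM. The parts of these 3 cannot be told apart. Median depth also differed, at 6414 UMIs in members and 3213 in B220lo cells. Ly6c1, a surface antigen, was at 607 CPM (596 to 619) in members, from 334 to 1044 over the clones, and had 1 UMI in B220lo cells. Brinp3, Rnase10, Rnase12 and Gria2, a glutamate receptor subunit, were at 711, 531, 992 and 495 CPM in members and at 0.462 to 2.59 CPM in B220lo cells. The lowest clone value among these 5 genes was that of Rnase10 in clone 9, at 254 CPM.

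Stage genes of the early B lineage lay apart in both directions. Of 14 early pro-B and progenitor genes 6 lay apart upward (Kit, Cd34, Flt3, Dntt, Erg and Enpep) and 5 downward (Cd93, Ly6d, Bst1, Cd24a and Lax1), with a median log2 difference of 0.06 beside −0.04 over all genes tested. Of 10 recombination genes 9 reached 100 UMIs, with 2 apart upward (Rag2 and Dntt) and 3 downward (Dclre1c, Lig4 and Xrcc6). Kit was at 405 CPM in members and 3.42 in B220lo cells, Dntt at 1405 against 32.9, Vpreb1 at 2667 against 354 and Igll1 at 2501 against 608. Kit was the antigen of the members' sort. Rag2 was at 175 against 65.8 CPM and Rag1 at 220.4 against 126, the latter short of 2-fold. Of 4 surrogate light chain genes, 2 lay apart upward and Vpreb2 downward, at 0.352 against 45.1 CPM. Of 18 B-lineage transcription factors 8 lay apart downward (Tcf3, Ikzf3, Spi1, Spib, Bach2, Runx1, Irf4 and Irf8) and 3 upward, with a median log2 difference of −0.89. The 3 were Foxo1 at 970 against 191 CPM, Erg, a transcription factor of stem and early lymphoid cells, at 531 against 21.4, and Lef1 at 455 against 180. Markers of other cell types lay apart as well. Of 4 plasmacytoid dendritic markers that reached 100 UMIs, 3 did so downward (Siglech, Ccr9 and Cox6a2) and 1 upward (Tcf4). Of 3 T or NK markers, 2 lay apart downward (Gzma and Klrd1), and of 10 granulocyte markers 4 did so downward and 4 upward.

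Most single genes of pre-B receptor signalling were lower in members, although the list's sums were level. Of 15 pre-B receptor signalling genes, 10 lay apart downward and 2 upward, with a median log2 difference of −2.0, beside −0.04 over all genes tested. The list summed to 6375 CPM in members and 6307 in B220lo cells, with Cd79a at 3874 against 2002 CPM and short of 2-fold. Syk, the kinase that relays the receptor, was at 39.4 CPM in members (26.1 to 54.1 over the clones) and 502 in B220lo cells, and Btk at 3.63 against 106. Blk, a Src-family kinase, had 0 UMIs in members, at least 1126-fold lower by the floor of 3 counts over the group, which also serves for Il2ra and Iglc2 below. Zap70, the kinase related to Syk that T cells use, was at 396 against 16.1 CPM, and Blnk, an adaptor, at 980 against 477. Of 14 genes of the small pre-B and light-chain stage, 11 lay apart downward and 2 upward, with a median of −3.86. Il2ra had 0 UMIs in members, at least 575-fold lower, Irf4 was at 6.62 against 226 CPM and Ikzf3 at 0.644 against 294. Irf4 and Ikzf3 are transcription factors that accompany the end of large pre-B cell division.

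Light-chain constant transcripts were at or near 0, and most genes of immature and mature B cells were lower than in B220lo cells. Igkc had 1 UMI in all members against 71.3 CPM in B220lo cells, and Iglc2 had 0, at least 966-fold lower. Of 13 immature and mature B-cell genes, 10 reached 100 UMIs in either group, 8 of them lay apart downward and 0 upward. The 13 genes summed to 520 CPM in members (474 to 686 over the clones) and 1516 in B220lo cells, and 457 CPM of the members' sum was Cd37, a tetraspanin, at 549.9 CPM in B220lo cells. Ms4a1, which encodes CD20, had 1 UMI in members. Of 14 interferon response genes 8 lay apart upward and 0 downward, with a median of 1.65. Isg15 was at 74.8 against 8.88 CPM and Ifit1 at 26.4 against 0.740. The genes furthest downward over all were Myl4 at 0.469 against 581 CPM, Hbb-bs at 1.70 against 1012, Spib, an Ets factor, at 0.0586 against 287, Hbb-bt and Blk. The members of every one of the 14 clones stood on the same side as the sum for Syk, Dntt, Kit and Zap70.

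**Figure D5:**
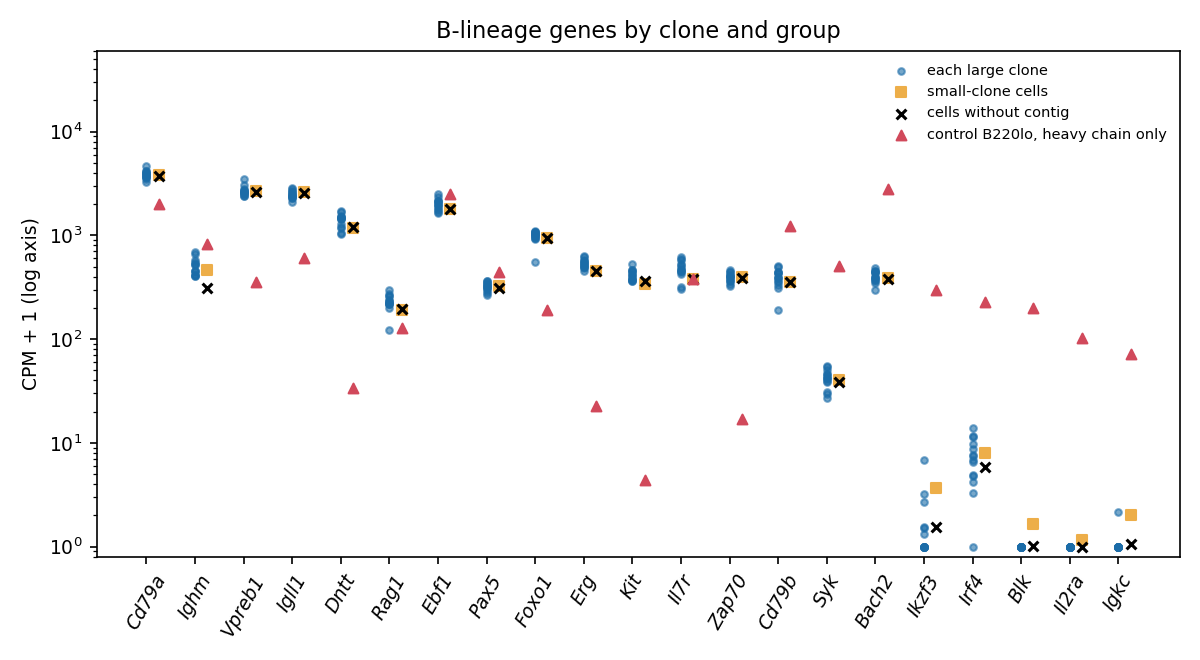
CPM + 1 (vertical log axis) of B-lineage genes (horizontal axis) in each of the 14 large clones (blue points), in small-clone cells (orange), in B-lineage cells without contig (crosses) and in control B220lo cells with heavy chain only (red). The orange squares and crosses lie within or near the spread of the clones except for Ighm of cells without contig. That exception is tied to the choice of these cells by contig. Dntt, Erg, Kit and Zap70 of B220lo cells lie below all clones and Syk, Bach2, Irf4 and Il2ra above them.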

How the data were processed

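Single-cell libraries were made with a 10x Genomics 5′ kit version 2, per the labels, and processed with Cell Ranger 7.1.0 on mm10, per the submitters' processing notes. The deposited matrices hold UMI counts per gene and barcode, not normalized, for 32285 genes. The deposited contig tables (other values: segment calls, CDR3 sequences and reads or UMIs per contig) were the source of clones. Whether reads in introns were counted is not given in the sources used here. The clones, gene lists and comparisons were chosen with earlier results of these data known.

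Counts were read with Python 3.11.15, NumPy 2.4.6, SciPy 1.17.1 and pandas 2.3.3. Cells passed at 1000 UMIs, 500 genes and 10% mitochondrial UMIs. Members had a depth of 1000 to 52908 UMIs per cell. UMIs were summed per clone or group and divided by the group's total (CPM), and log2 ratios used a pseudocount of 1 CPM. Intervals are 95% exact Poisson intervals for levels, exact conditional binomial ones for ratios and Clopper-Pearson ones for shares, and they cover counting error only. Cells were thinned to 1000 UMIs where shares of cells with a UMI are given. Cells without contig entered as B lineage with 3 UMIs over Cd79a, Cd79b, Ebf1, Vpreb1, Vpreb3 and Igll1.

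Genes named are the 5 furthest each way with at least 100 UMIs in the higher group, the 15 with the widest range between clones of at least 100 cells, and members of 17 gene lists and 10 marker lists. V, D and J segments, ribosomal protein, mitochondrial, Y-linked and predicted genes were left out of that choice, and genes named by another rule are said to be so. A gene that the rule would name is not reported here. Genes named for their range without the granulocyte-bearing cells (Lyz2, Mmp16, Ncam2, S100a16, Cntn5, Pcdh15, Il18r1), Kdm5d and the genes of clone 4 were added after seeing the data.

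Segments were matched to GENCODE vM21. Doublets were not removed. Scrublet scores, run in scanpy 1.11.5 with an expected share of 0.08, were above 0.25 in 213 members (10.3%) and 1168 of 14915 kept cells, and removing those cells was an alternative. The procedure was tested on simulated counts. The other alternatives changed the cell filter, the clone size and definition, the contig UMIs, the minimum of UMIs, the pseudocount and the scaling. Leaving out cells with 10 granulocyte UMIs and reading 9 bases before J were added after seeing the data. The matrices of the control Kit+ and Mll3/4SI Kit+ libraries were not used here beyond their barcodes.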

Additional observations from a re-analysis of the deposited data

How the results depend on the processing

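No paired analysis was possible because each group was 1 library without a replicate number. The number of member cells, 2060, was between 1549 (clones of at least 100 barcodes) and 2372 (at least 20) under the alternatives tried. The share with a light chain, 0.194%, was 0.0971% with contigs of at least 2 UMIs and 0.253% with clones of at least 20 barcodes, both inside its interval of 0.0529 to 0.496%. With a clone of at least 100 barcodes there were 7 clones and clone 1 was 28.8% of their cells, and with at least 20 barcodes there were 25 clones and clone 1 was 18.8%. Thinning to 1000 UMIs took the share of members with their own V gene from 99.4% to 75.1%. With 9 bases before J, 33.0% of small-clone cells carried a large-clone junction, against 38.6%.

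The setting that moved the count of genes apart most differed between comparisons. With 50 UMIs there were 44 genes for large against small clones, 55 for clone 1 and 85 for the range between clones, and with no minimum 71, 129 and 1058, beside 24, 30 and 53, whereas the count against cells without contig, 80, was 84 and 85. With a pseudocount of 10 CPM there were 10 for large against small clones, 14 against cells without contig and 1310 against control B220lo cells, beside 24, 80 and 2189. Removing cells with a Scrublet score over 0.25 gave 146 against cells without contig. Without cells holding 10 granulocyte UMIs, an alternative added after seeing the data, there were 35 against cells without contig and 14 for clone 1.

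The share of genes apart that were higher in the members, 58.3% against small clones, was 47.1% without the Scrublet cells, 42.3% with the mean of per-cell CPM, 39.4% with no minimum, 40.0% with a pseudocount of 10 CPM and 29.4% without clone 1. Against cells without contig it was 10.0%, and 21.4% with a pseudocount of 10 CPM, 3.08% with the mean of per-cell CPM and 2.78% without clone 1. For clone 1 it was 36.7%, and 25.6% without the Scrublet cells and 55.0% with a pseudocount of 10 CPM. Leaving out a replicate could not be run, as no group had more than 1 library. Clones of 52 to 125 cells had totals of 445943 to 933514 UMIs, so genes under about 10 CPM rest on few UMIs there.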
